A study of Rattus norvegicus with 8 samples.

Results

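Fatty acid oxidation genes and targets of the nuclear receptor PPAR-alpha were examined in the right kidney of rats that had lost the left one or had been sham-operated. The set held 40 genes named by symbol, each matched to at least 1 of 50 probes through the RefSeq accession of the probe. Of these, 37 were well above background on every array of at least 1 group and entered the fit, which covered 19868 genes in all. The other 3 were Acox3, Abcd2 and Fabp1.

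The rats were males of the inbred strain F344/NSlc at an age of 10 weeks, and total RNA came from the right kidney of 4 rats after unilateral nephrectomy and of 4 after a sham operation. The series text gives an interval of 2 days after surgery, whereas the source label gives 1 day for sham and 2 days for nephrectomized rats. Every difference is therefore one between groups that may also differ by a day of recovery. No allele or drug was involved, and the sham rats kept both kidneys. The labels number the rats 1 to 4 in each group, and nothing in them states how the kidneys were sampled, so p-values measure the spread between these samples. Each rat had its own 1-colour Agilent array, with 2 rats of each group on each of 2 slides. Between 54.8% and 65.5% of the gene probes of an array were well above background, and the number of arrays limits the precision. Values are log2 intensities from which the array's 75th percentile was subtracted, so that 0 is the brightness below which 75% of the gene probes of that array lie. The scale follows 1 probe across rats and does not rank genes against each other, and it holds no measure of mRNA per kidney.

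Fatty acid oxidation is the main source of ATP in the proximal tubule, where long-chain fatty acids are activated to acyl-CoA, carried into mitochondria on carnitine and shortened by repeated rounds of dehydrogenation, hydration, dehydrogenation and thiolysis. Peroxisomes shorten very long and branched chains with a separate set of enzymes and pass the products on. PPAR-alpha binds fatty acids, pairs with a retinoid X receptor and binds DNA at a direct repeat spaced by a single base, and many genes of both organelles are its targets. The comparison asks whether the mRNAs of this programme differed in the kidney that compensates for the loss of its partner.

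The repeat was looked for in the RefSeq promoter windows of the GRCr8 assembly, which run from 250 bases before to 50 bases after a gene's start, because it is the element that would link the members to the receptor. The motif was AGGTCA, any single base and AGGTCA again, read on both strands, so it contains the shorter motif AGGTCA. A window was given for 35 of the 40 members. None of them held the full motif without a mismatch, against 0.0538% of 33469 windows. At most 1 of its 12 fixed letters differed in 2 of the 35 windows (0.439% of all windows), and at most 2 differed in 6 (3.77% of all windows). AGGTCA alone was present in 8 of the 35 windows, against 16.2% of all. Such matches describe letters in a window, and binding of the receptor to them was not measured. Their absence from so short a window says nothing about the receptor. The windows of Acadvl and Fabp1 are shown for the closest matches, that of Slc25a20 as a carnitine shuttle gene with 2 mismatches, and that of Acadsb as the member with the smallest p. Capitals mark the match. In Fabp1 it lies on the strand opposite to the one printed, and Acadsb has no match with at most 2 mismatches.
Acadvl (GRCr8 chr10:55236656-55236955, minus strand, match 17 to 5 bases before the start): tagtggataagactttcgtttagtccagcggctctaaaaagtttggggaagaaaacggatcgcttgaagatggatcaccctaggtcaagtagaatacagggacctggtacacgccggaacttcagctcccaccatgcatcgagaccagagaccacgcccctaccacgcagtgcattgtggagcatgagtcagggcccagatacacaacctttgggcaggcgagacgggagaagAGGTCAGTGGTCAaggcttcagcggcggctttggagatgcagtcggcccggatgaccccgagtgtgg
Fabp1 (GRCr8 chr4:104749090-104749389, plus strand, match 77 to 65 bases before the start): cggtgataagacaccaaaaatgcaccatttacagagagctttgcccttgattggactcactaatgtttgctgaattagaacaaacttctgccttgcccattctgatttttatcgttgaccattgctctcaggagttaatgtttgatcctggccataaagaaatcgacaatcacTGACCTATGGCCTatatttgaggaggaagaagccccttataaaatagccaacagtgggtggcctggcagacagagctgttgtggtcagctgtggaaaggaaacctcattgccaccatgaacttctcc
Slc25a20 (GRCr8 chr8:118243323-118243622, plus strand, match at bases 16 to 28 of the gene): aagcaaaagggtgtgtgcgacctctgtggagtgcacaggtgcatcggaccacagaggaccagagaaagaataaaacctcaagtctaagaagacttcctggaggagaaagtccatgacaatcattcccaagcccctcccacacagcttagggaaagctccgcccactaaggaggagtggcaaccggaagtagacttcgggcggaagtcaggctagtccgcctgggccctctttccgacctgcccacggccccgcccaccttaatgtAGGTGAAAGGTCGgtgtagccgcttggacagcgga
Acadsb (GRCr8 chr1:195618966-195619265, plus strand): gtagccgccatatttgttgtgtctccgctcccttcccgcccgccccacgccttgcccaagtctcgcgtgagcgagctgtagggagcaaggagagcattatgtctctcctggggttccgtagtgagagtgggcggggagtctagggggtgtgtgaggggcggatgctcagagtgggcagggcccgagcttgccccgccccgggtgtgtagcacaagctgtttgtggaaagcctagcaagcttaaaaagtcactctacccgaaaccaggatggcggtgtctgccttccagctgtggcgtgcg
In the kidney, the members with these windows differed in detection. Acadvl, Slc25a20 and Acadsb were well above background in all 8 rats, whereas Fabp1 was so in at most 1.

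No member of the set passed the threshold. Of the 37 genes fitted, 0 were higher and 0 lower after nephrectomy at an adjusted p of 0.05 (limma, two-sided, Benjamini-Hochberg over all genes tested), against 2.57% of all genes called higher and 1.02% called lower. At an unadjusted p under 0.05 there was 1 member higher and 3 lower, against 10.1% and 7.6% of all genes. These counts became 2 higher and 7 lower of 38 without sham rat 1 and 3 higher and 8 lower with array weights, and ran from 0 to 3 and from 1 to 8 over all alternatives. The shares of all genes at an unadjusted p were not computed for the alternatives. Calls at an adjusted p were 3.25% of all genes without sham rat 1 and 12% with array weights, against 3.59% as reported. On the brightest probe of each gene, the nephrectomized rats all lay above the sham rats in 0 members (7.56% of all genes). They all lay below in 2 members, Acadsb and Ech1 (5.07% of all genes). The median log2 fold change of the members was -0.02, with values between -0.32 and 0.24, and that of all genes tested was 0. In RNA from kidney tissue, fewer cells of a type and less RNA per cell cannot be told apart, and the labels do not state which part was taken.

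These small values came with narrow intervals. The 95% interval of the fold change lay inside 1.5-fold in either direction for 35 of 37 members, all but Acox2 and Angptl4, and for 82.4% of all genes tested. The 1.5-fold limit was chosen after the values were seen. On the brightest probe of each gene, all 20 mitochondrial members were inside it, so on these probes a change of that size was outside the interval. Other probes of a gene were not counted here. A dimmer second probe of Hadha gave a log2 fold change of 0.37 with an SE of 0.28, against an SE of 0.07 on its brightest probe. The fold changes by role show the spread of the members on both sides of 0.

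**Figure D1:**
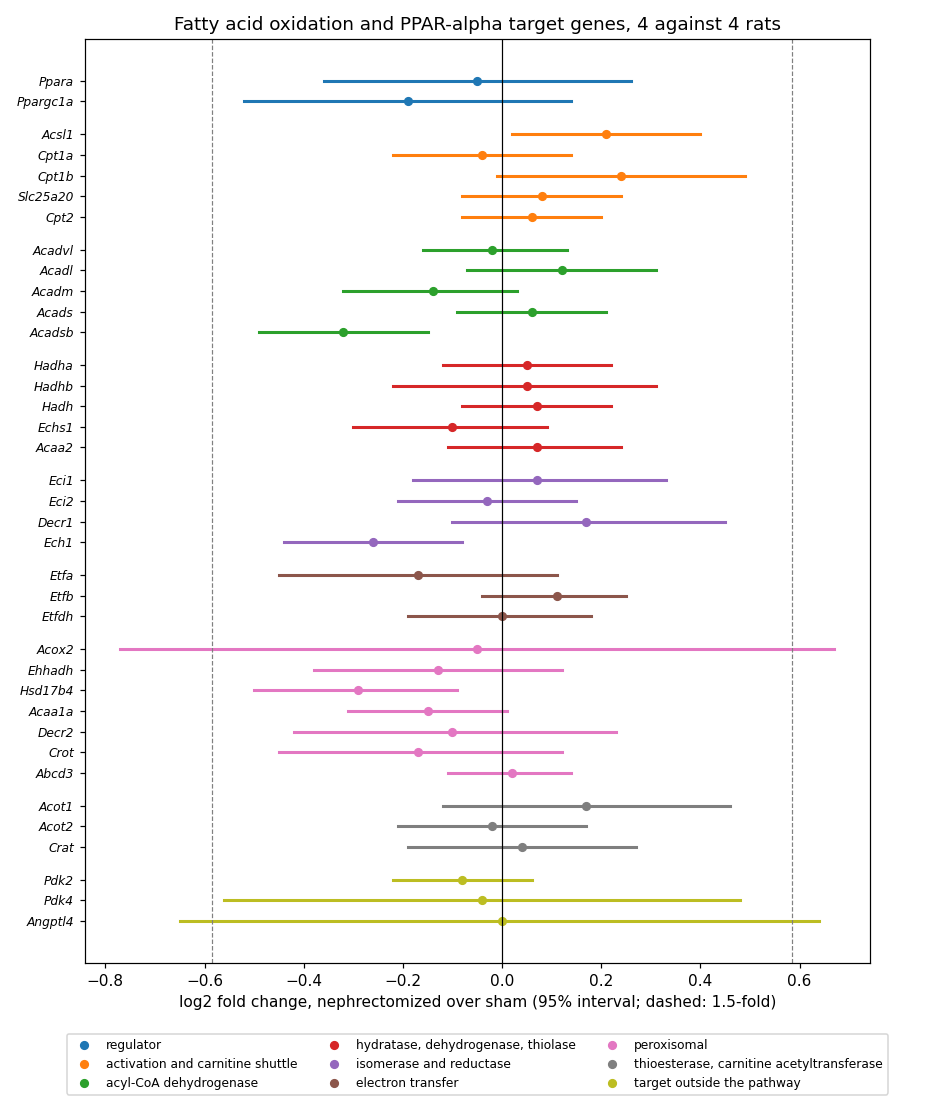
Log2 fold change (nephrectomized over sham, x axis) of the 37 fitted members (y axis, coloured by role), each with its 95% interval from limma, 4 rats per group. The values lie between -0.32 and 0.24, and 35 of the 37 intervals stay inside the dashed lines at 1.5-fold.

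The regulators did not pass. Ppara, which encodes the receptor, lay at -1.67, -1.30, -1.31 and -1.33 in the sham rats and at -1.48, -1.55, -1.12 and -1.68 in the nephrectomized rats. The groups overlapped over most of their range, and the log2 fold change was -0.05 (SE 0.14, 95% interval -0.36 to 0.26, adjusted p = 0.882 by limma). Ppargc1a encodes a coactivator of PPAR-alpha and of mitochondrial biogenesis. Its sham rats lay at 0.99, 1.32, 1.11 and 1.16 and its nephrectomized rats at 0.62, 1.26, 0.80 and 1.14. Nephrectomized rats 1 and 3 were below all sham rats, while rats 2 and 4 were among them (log2 fold change -0.19, SE 0.14, adjusted p = 0.549).

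In fatty acid activation and the carnitine shuttle, 4 of the 5 members were on the positive side, and the median log2 fold change was 0.08. Acsl1, the long-chain acyl-CoA synthetase, lay at 4.80, 5.01, 5.11 and 5.01 in sham and at 5.05, 5.28, 5.24 and 5.19 in nephrectomized rats. The groups overlapped through sham rat 3 and nephrectomized rat 1. The log2 fold change was 0.21 (SE 0.08, 95% interval 0.02 to 0.40, adjusted p = 0.242 by limma), and the other 3 probes of Acsl1 gave 0.17, 0.18 and 0.23. On the dimmer probe with 0.23 the groups were separate, from 2.96 to 3.06 in sham and from 3.19 to 3.37 in nephrectomized rats. That probe did not pass either (adjusted p = 0.0978 by limma over probes). Cpt1b encodes the muscle form of carnitine palmitoyltransferase 1, the enzyme that commits acyl groups to mitochondria. It lay at 1.55, 1.40, 1.38 and 1.18 in sham and at 1.78, 1.75, 1.51 and 1.41 in nephrectomized rats. Nephrectomized rats 1 and 2 exceeded every sham rat and rats 3 and 4 did not (log2 fold change 0.24, SE 0.11, adjusted p = 0.309). A dimmer probe of Cpt1b, well above background in 3 rats of each group and not fitted, had means of -3.87 in sham and -4.32 in nephrectomized rats, the opposite order. For Cpt1a, the liver form, the log2 fold change was -0.04 (95% interval -0.22 to 0.14). Slc25a20, the translocase that carries acylcarnitine across the inner membrane, gave 0.08, and Cpt2, which returns the acyl group to CoA in the matrix, gave 0.06.

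The acyl-CoA dehydrogenases take the first step of each mitochondrial round. The enzymes for very long, long, medium and short straight chains had log2 fold changes of -0.02 (Acadvl), 0.12 (Acadl), -0.14 (Acadm) and 0.06 (Acads), with adjusted p between 0.374 and 0.916 in limma. Acadm lay at 6.35, 6.50, 6.57 and 6.48 in sham and at 6.4, 6.31, 6.42 and 6.20 in nephrectomized rats. Sham rat 1 was low among the sham rats, and the other 3 were above every nephrectomized rat.

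Acadsb, which encodes the dehydrogenase of short branched chains and acts in isoleucine breakdown, came closest to the threshold of all members. Its sham rats lay at 0.39, 0.69, 0.54 and 0.47 and its nephrectomized rats at 0.15, 0.23, 0.21 and 0.21. The nephrectomized rats lay close together (SD 0.03, n = 4) and all below the sham rats (SD 0.13, n = 4). The level in nephrectomized rats was 0.801 of the sham level (95% interval 0.712 to 0.900, adjusted p = 0.0566 by limma). Slide 1 gave a log2 fold change of -0.35 and slide 2 of -0.29. It passed without sham rat 1 (adjusted p = 0.0432), with an intensity trend and robust estimation (0.0405) and with array weights (0.0137), and not under the other alternatives (0.0137 to 0.644 over all of them). Leaving out sham rat 1 thus takes the count of members called lower from 0 to 1.

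**Figure D2:**
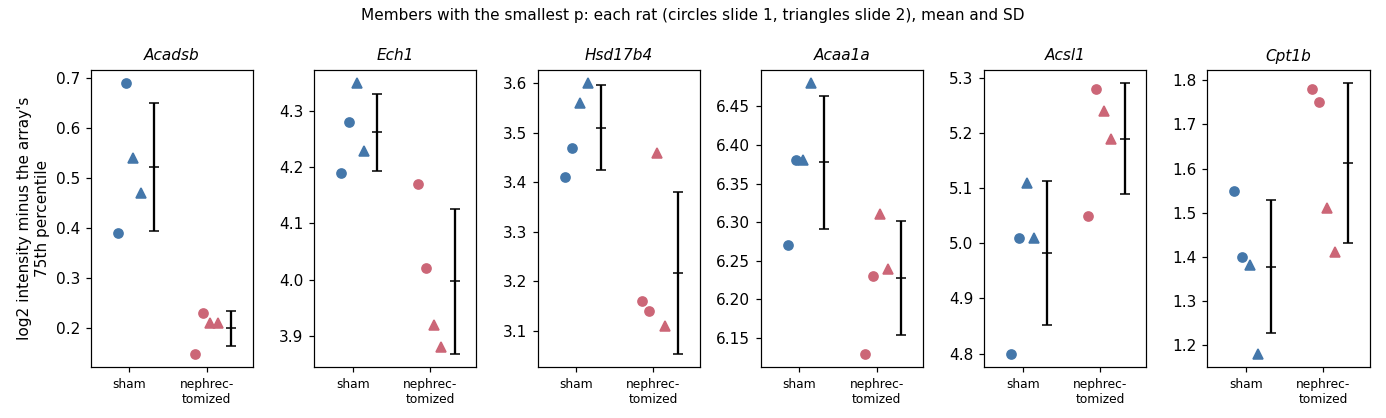
Log2 intensity relative to the array's 75th percentile (y axis, a scale of its own in each panel) in each sham and nephrectomized rat (x axis) for the 6 members with the smallest p, with circles for slide 1 and triangles for slide 2, and the mean and SD of 4 rats beside the points. The groups are separate for Acadsb and Ech1 and overlap for Hsd17b4, Acaa1a, Acsl1 and Cpt1b.

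The later steps of mitochondrial oxidation stayed close to the sham level. Hadha and Hadhb encode the subunits of the trifunctional protein, which carries out the last 3 steps on long chains, and each had a log2 fold change of 0.05. A dimmer second probe of Hadha gave 0.37 (SE 0.28). Hadh, the dehydrogenase of shorter hydroxyacyl chains, lay at 7.08, 7.19, 7.23 and 7.21 in sham and at 7.24, 7.31, 7.30 and 7.14 in nephrectomized rats. Its groups overlapped through nephrectomized rat 4, with a log2 fold change of 0.07 (95% interval -0.08 to 0.22). Echs1, the short-chain enoyl-CoA hydratase, lay at 6.77, 6.97, 6.87 and 6.98 in sham and at 6.89, 6.67, 6.94 and 6.68 in nephrectomized rats. Here nephrectomized rats 2 and 4 were below all sham rats and the other 2 were not (log2 fold change -0.10, 95% interval -0.30 to 0.09). Acaa2, the mitochondrial thiolase, gave 0.07 (95% interval -0.11 to 0.24).

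The isomerases and reductases that prepare unsaturated chains for oxidation gave values on both sides. Ech1, a dienoyl-CoA isomerase found in mitochondria and peroxisomes, lay at 4.19, 4.28, 4.35 and 4.23 in sham and at 4.17, 4.02, 3.92 and 3.88 in nephrectomized rats. Every nephrectomized rat was below every sham rat, by a small gap between nephrectomized rat 1 and sham rat 1. The level was 0.833 of sham (95% interval 0.736 to 0.943, adjusted p = 0.119 by limma). Slide 1 gave a log2 fold change of -0.14 and slide 2 of -0.39, and of the alternatives only array weights took it past the threshold (adjusted p = 0.025, range 0.025 to 0.828). Decr1, the mitochondrial dienoyl-CoA reductase, lay at 4.65, 4.92, 5.12 and 5.09 in sham and at 5.12, 5.30, 5.12 and 4.94 in nephrectomized rats. Sham rat 1 stood lowest and nephrectomized rat 2 highest, and slide 1 gave a log2 fold change of 0.42 against -0.07 for slide 2 (0.17 over both, adjusted p = 0.507). The enoyl-CoA isomerases Eci1 and Eci2 gave 0.07 and -0.03.

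Electrons from the dehydrogenases pass through the electron transfer flavoprotein, whose subunits are encoded by Etfa and Etfb, to its oxidoreductase Etfdh. Etfa lay at 3.30, 3.58, 3.60 and 3.47 in sham and at 2.97, 3.41, 3.48 and 3.41 in nephrectomized rats. Nephrectomized rat 1 was well below all other rats, and the log2 fold change of -0.17 had an adjusted p = 0.536 by limma. Without that rat the value was -0.05. Etfb lay at 6.66, 6.48, 6.50 and 6.49 in sham and at 6.66, 6.68, 6.57 and 6.66 in nephrectomized rats, so that sham rat 1 alone reached the nephrectomized range (log2 fold change 0.11, adjusted p = 0.436). Etfdh lay at the sham level (0.997-fold, 95% interval 0.878 to 1.13).

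The peroxisomal members lay mostly below the sham level and the mitochondrial members on both sides of it, without a call in either group. Of 7 fitted peroxisomal members, 6 had negative log2 fold changes, and the median was -0.13. Of 20 mitochondrial members, 12 had positive values, and the median was 0.05. Ech1, Eci2 and Crat, known in both organelles, were counted in neither group (log2 fold changes -0.26, -0.03 and 0.04). Of all 19868 genes tested, 9912 had positive values, and the median was 0. On slide 1 the peroxisomal median was -0.06 and the mitochondrial one 0.08, and on slide 2 they were -0.26 and -0.02. Without sham rat 1 or nephrectomized rat 3 the peroxisomal median was -0.21, and without sham rat 3 it was -0.06. Expressed per rat against the sham mean, the peroxisomal median was -0.21, 0.00, 0.07 and 0.09 in sham and -0.18, -0.17, -0.02 and -0.19 in nephrectomized rats. Sham rat 1 was the lowest of all 8 rats, so the groups overlapped. The mitochondrial median was -0.11, 0.02, 0.07 and 0.02 in sham and 0.01, 0.10, 0.11 and -0.04 in nephrectomized rats, which also overlapped. The difference between the organelles was not tested.

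Among the peroxisomal enzymes, Hsd17b4 and Ehhadh each encode a bifunctional protein. Hsd17b4 lay at 3.41, 3.47, 3.56 and 3.60 in sham and at 3.16, 3.14, 3.46 and 3.11 in nephrectomized rats. Nephrectomized rat 3 lay within the sham range and the other 3 below it. The level was 0.815 of sham (95% interval 0.707 to 0.941, adjusted p = 0.128 by limma). Without nephrectomized rat 3 the gene passed (adjusted p = 0.0326, log2 fold change -0.37), as it did with array weights (0.0111), against 0.0111 to 0.562 over all alternatives. Leaving out that rat thus takes the count of members called lower from 0 to 1. Ehhadh gave a log2 fold change of -0.13 (SE 0.11).

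Acaa1a, the peroxisomal thiolase, lay at 6.27, 6.38, 6.38 and 6.48 in sham and at 6.13, 6.23, 6.31 and 6.24 in nephrectomized rats. The groups overlapped through sham rat 1 and nephrectomized rat 3, and the log2 fold change was -0.15 (SE 0.07, adjusted p = 0.303), with -0.18 from a second probe. Crot, which makes octanoylcarnitine for export to mitochondria, gave -0.17, and Decr2, the peroxisomal dienoyl-CoA reductase, -0.10. Abcd3, a transporter of the peroxisomal membrane, had the smallest spread of the members described here. Its 8 rats lay between 6.49 and 6.59, and its log2 fold change was 0.02 (95% interval -0.11 to 0.14). Acox2, the branched-chain acyl-CoA oxidase, spread most widely, from -3.17 to -1.82 in sham and from -3.03 to -1.95 in nephrectomized rats, and its interval reached from 0.585-fold to 1.59-fold.

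For the members below the filter no fold is given. Acox3, the other branched-chain oxidase, was well above background in 3 rats of each group, with means of -3.79 in sham and -3.85 in nephrectomized rats. Abcd2, a peroxisomal transporter, was so in 1 sham rat and 0 nephrectomized rats. Fabp1, the liver fatty acid binding protein, has a pair of probes here, of which the first was well above background in 0 of 8 rats and the second in 1 nephrectomized rat.

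Thioesterases release free fatty acid from acyl-CoA. Acot1, the cytosolic form, lay at 4.57, 4.85, 5.0 and 4.79 in sham and at 4.78, 4.89, 5.28 and 4.93 in nephrectomized rats. The groups overlapped, with nephrectomized rat 3 highest (log2 fold change 0.17, SE 0.13, adjusted p = 0.546). Acot2, the mitochondrial form, gave -0.02. The probes of these close relatives may hybridise to each other's mRNA. Crat, the carnitine acetyltransferase, lay at 1.47, 1.52, 1.49 and 1.5 in sham and at 1.33, 1.49, 1.82 and 1.51 in nephrectomized rats. The sham rats lay close together (SD 0.02, n = 4) and the nephrectomized rats spread more widely (SD 0.20, n = 4), around a log2 fold change of 0.04.

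PPAR-alpha targets outside the pathway also stayed below the threshold. Pdk2 and Pdk4 encode kinases that switch off pyruvate dehydrogenase, which favours fatty acids as fuel. Pdk2 lay at 6.09, 5.97, 6.07 and 6.10 in sham and at 5.98, 5.92, 6.08 and 5.93 in nephrectomized rats. Nephrectomized rats 2 and 4 were below every sham rat, and the log2 fold change was -0.08 (95% interval -0.22 to 0.06). Pdk4, which fasting and PPAR-alpha ligands induce, was dim, and well above background in 3 sham and 4 nephrectomized rats. It lay at -3.54, -3.65, -3.78 and -4.43 in sham and at -4.13, -3.77, -4.21 and -3.46 in nephrectomized rats. The lowest rat was sham rat 4 and the highest nephrectomized rat 4, and the interval of the fold change, 0.676 to 1.39, was correspondingly wide. Angptl4, a secreted inhibitor of lipoprotein lipase, lay between -3.17 and -2.00 in sham and between -3.00 and -2.02 in nephrectomized rats, with an interval from 0.637-fold to 1.56-fold.

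Differences between rats of the same group were shared by many members. Sham rat 1 was the lowest sham rat in 26 of 37 members (70.3%), against 35.2% of all genes, and sham rat 3 was the highest in 18 (48.6%), against 22.8%. Nephrectomized rat 4 was the lowest of its group in 19 (51.4%, against 18.3% of all genes) and nephrectomized rat 3 the highest in 21 (56.8%, against 32.7%). Sham rat 1 also had the lowest share of probes well above background, 54.8%. The median over all members against the sham mean ran from -0.13 (sham rat 1) to 0.08 (sham rat 3) within the sham group, a wider range than the -0.07 to 0.05 of the nephrectomized group. The members share these rats, so the counts are a description.

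**Figure D3:**
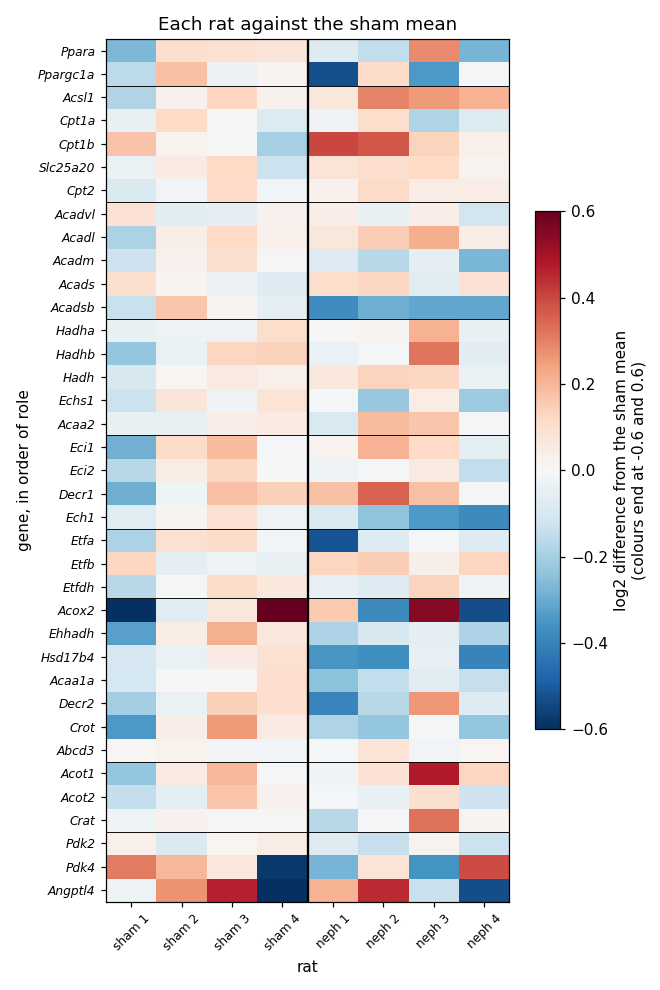
Log2 difference of each rat (x axis, sham 1 to 4 and nephrectomized, neph, 1 to 4) from the sham mean of the gene, by colour, for the 37 fitted members in order of role (y axis, lines between roles). The column of sham rat 1 is mostly blue (lowest sham rat in 26 members), and Acadsb is below the sham mean in all 4 nephrectomized rats.

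Genes that act with the members but are not among them included 4 that passed the threshold. The list held 60 genes, chosen with earlier results of these data known, such as fatty acid transporters, synthetases and nuclear receptor partners. Of these, 54 had a probe and 47 were fitted, 2 of them called higher and 2 lower, against 2.57% and 1.02% of all genes. The median log2 fold change was -0.05, from -0.78 to 0.86. All 4 called genes had groups that did not overlap, as did Acsl5 and Mlycd, which did not pass (log2 fold changes 0.29 and -0.18). That is 3 of the 47 fitted genes above and 3 below the sham rats, against 7.56% and 5.07% of all genes. Because of how the list was chosen, its counts are a description.

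Rxrg encodes retinoid X receptor gamma, of the family whose members pair with PPAR-alpha. It lay at -1.70, -1.90, -1.54 and -1.58 in sham and at -1.03, -1.11, -0.57 and -0.58 in nephrectomized rats, each of which exceeded every sham rat. The gene rose 1.81-fold (95% interval 1.44 to 2.29, adjusted p = 0.018 by limma), with log2 fold changes of 0.73 on slide 1 and 0.99 on slide 2. The call was lost without sham rat 2 (adjusted p = 0.0551) or nephrectomized rat 4 (0.0568), with dim probes left in (0.0751) and within slide 1 (0.23), against 0.0026 to 0.23 over all alternatives. A second, dimmer probe was well above background in 0 sham and 2 nephrectomized rats. Rxrb gave -0.20 and did not pass (adjusted p = 0.336 by limma). No probe was matched to Rxra, so that member of the family was not measured.

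Ppargc1b, the coactivator related to Ppargc1a, lay at 1.29, 1.80, 1.46 and 1.51 in sham and at 0.78, 1.03, 1.03 and 0.90 in nephrectomized rats, all of them below the sham rats. It fell to 0.668 of the sham level (95% interval 0.559 to 0.799, adjusted p = 0.0292 by limma), with log2 fold changes of -0.64 on slide 1 and -0.52 on slide 2. Its call was lost without sham rat 3 or 4 (0.0792 and 0.0752), without nephrectomized rat 1, 2 or 4 (0.0682, 0.0613 and 0.0957), with dim probes left in (0.12) and within either slide (0.548 and 0.176), against 0.00767 to 0.548 over all alternatives. The difference between its change and that of Ppargc1a was not tested.

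Acot12, a thioesterase that hydrolyses acetyl-CoA, lay at 0.32, 0.56, 0.53 and 0.52 in sham and at 0.01, 0.14, 0.22 and 0.03 in nephrectomized rats. The groups were separate, and it fell to 0.766 of the sham level (95% interval 0.677 to 0.866, adjusted p = 0.0344 by limma). Fabp3, the heart fatty acid binding protein, lay at 4.70, 4.68, 4.72 and 4.72 in sham and at 4.93, 4.95, 5.06 and 5.11 in nephrectomized rats. Sham rats lay close together (SD 0.02, n = 4), and the gene rose 1.24-fold (95% interval 1.12 to 1.36, adjusted p = 0.0305). Both calls were lost with the replicate number as a block (0.0634 and 0.0874), with dim probes left in (0.146 and 0.15) and within either slide. Acot12 also lost its call without any one of sham rats 2, 3 and 4 or nephrectomized rats 1, 2 and 4 (0.0789 to 0.117), and Fabp3 without any one rat but nephrectomized rat 1 (0.0588 to 0.103). Over all alternatives the adjusted p ran from 0.00378 to 0.585 for Acot12 and from 0.00862 to 0.626 for Fabp3.

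**Figure D4:**
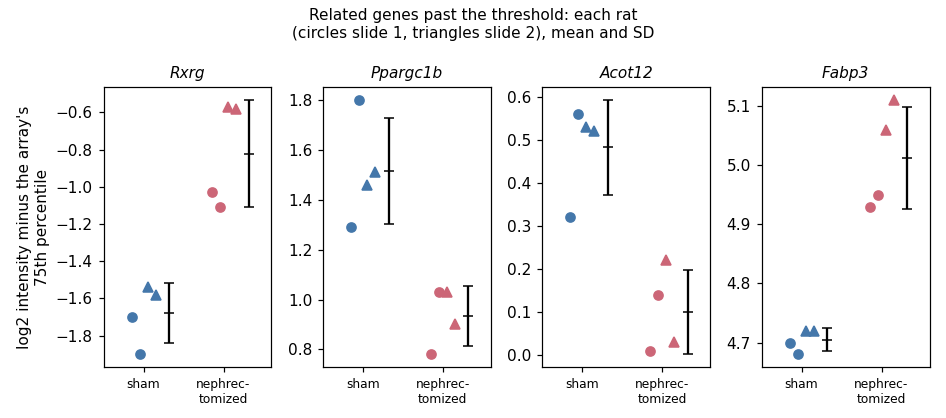
Log2 intensity relative to the array's 75th percentile (y axis, a scale of its own in each panel) in each sham and nephrectomized rat (x axis) for the 4 related genes past the threshold, with circles for slide 1 and triangles for slide 2, and the mean and SD of 4 rats beside the points. Nephrectomized rats lie above every sham rat for Rxrg and Fabp3 and below for Ppargc1b and Acot12.

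Markers of cell types were read beside these values. All 8 proximal tubule and all 6 distal nephron markers were well above background in all 8 rats, and none was called. The proximal tubule median against the sham mean lay between -0.01 and 0.04 in sham and between -0.12 and 0.00 in nephrectomized rats. Beside the peroxisomal median log2 fold change of -0.13, that of the 8 proximal tubule markers was -0.11, and 6 of them were negative. Within that list Slc7a13, an amino acid transporter of the last proximal segment, had the largest difference, 0.49 of the sham level (adjusted p = 0.182 by limma). It lay at 3.87, 4.82, 4.93 and 4.24 in sham and at 4.25, 2.99, 3.77 and 2.72 in nephrectomized rats. Sham rat 1 was the lowest of its group and nephrectomized rat 4 of its own, as in many members, and the groups overlapped. White adipocyte markers are relevant because fat around the kidney expresses several members. Of 8, 5 were fitted and none called, with a median between -0.46 and 0.39 in sham and between -0.29 and 0.12 in nephrectomized rats. Their log2 fold changes were -0.78 (Cidec), -0.55 (Fabp4), -0.11 (Adipoq), -0.10 (Cfd) and 0.87 (Lipe). Lipe lay at -6.84 in sham rat 3 and between -2.99 and -2.48 in the other rats. Adipoq was well above background in all 8 rats and Lep in none. The brown adipocyte marker Ucp1 and the muscle markers Ckm, Acta1 and Myh4 were well above background in no rat, and Cidea and Mb, also fitted, were not called. Of adrenal markers, Cyp11b1, Cyp11b2 and Cyp21a1 were so in no rat and Cyp11a1 in 2 of each group. Of 6 leukocyte markers 3 were fitted and of 4 endothelial markers 4, none called, with medians from -0.18 to 0.08 and from -0.12 to 0.08 in sham and from -0.08 to 0.26 and from -0.13 to 0.14 in nephrectomized rats. The part of cell makeup in the members' values was not tested.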

How the data were processed

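Total RNA of 8 rat kidneys was labelled with Cy3 and hybridised to 8 arrays, per the labels' protocols. The authors extracted the arrays with Agilent Feature Extraction 10.5.1.1, and the deposited intensity is background-subtracted and detrended within each array, per the file headers. A value table deposited by the authors holds log2 values of 30448 probes. It followed the scaled log2 intensity after its median over arrays was removed from every probe (r = 0.999898, across probes and arrays), and served as an alternative.

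Control spots and outlier spots were removed, log2 intensities averaged per probe, and the 75th percentile over gene probes subtracted. Probes well above background (in at least 0.5 of their spots) on all arrays of a group were kept (23985 of 41012). Accessions named 18713 probes through the GRCr8 gene table, and the brightest probe of a gene was used. limma 3.58.1 in R 4.3.3 compared the groups without covariates, adjusted over all genes, after a test on simulated data. Files hold no mean spot intensity, so normexp (offset 50) used the median one.

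The members, lists, tests and alternatives were chosen with earlier results of these data known. Values of every rat are given for members past the threshold or without overlap between groups, and for those with the smallest p and largest change of each role. Beyond this rule, Abcd3, Acox2 and Angptl4 were described for their role or spread. The labels state no pairing by replicate number. The correlation of same-numbered deviations from the group means was low, -0.0176 to 0.103, which cannot tell whether the rats were paired by design.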

Additional observations from a re-analysis of the deposited data

Results flagged for a closer look

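In a group of 4 rats, a rat was picked out where its gap to the nearest other rat exceeded Dixon's 95% critical value, as a share of the group's range. This held in 6 of 82 groups of values, and chance gives about 1 in 20. Sham rat 1 lay at -1.67 for Ppara against -1.33 to -1.30 in the other sham rats, and at 6.66 for Etfb against 6.48 to 6.50. Sham rat 4 lay at 3.05 for Hadha against 2.90 to 2.91. Nephrectomized rat 3 lay at 2.21 for Hadhb against 1.82 to 1.88 in the other nephrectomized rats, and at 3.46 for Hsd17b4 against 3.11 to 3.16. Nephrectomized rat 1 lay at 2.97 for Etfa against 3.41 to 3.48.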

How the results depend on the processing

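The count of members called higher was 0 under all 20 alternatives run, the 8 that leave out a rat included. The count called lower was 0 as reported, 1 (Acadsb) with an intensity trend and robust estimation, 3 (Acadsb, Ech1 and Hsd17b4) with array weights, which called 12% of all genes, and 0 to 1 when a rat was left out. The median log2 fold change of peroxisomal enzymes was -0.26 within slide 2 and -0.21 to -0.06 without single rats; those of mitochondrial enzymes and related genes stayed within 0.02 to 0.07 and -0.09 to -0.03 without single rats, and with array weights the 3 medians were -0.24, -0.01 and -0.10 in that order. The cause of these differences was not tested. With the replicate block, which the rats' correlations did not call for, 0 members were called and calls over all genes went from 714 to 296; sham rats other than number 3 did not correlate best with their own number. Calls over all genes also moved by over 1.5 times without the filter on dim probes (282), with array weights (2386), within slide 1 (0, with 1 member higher and 1 lower at an unadjusted p under 0.05) and slide 2 (142), and without sham rat 2, 3 or 4 (397, 342 and 430) or nephrectomized rat 2 or 4 (457 and 341). Values of dim members such as Pdk4, Angptl4 and Acox2 are limited by signal over background.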
